A study of Mus musculus with 2 samples.

Results

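The genes described here are 10 mouse genes of inflammatory signalling among the 32285 genes measured. They are the cytokines Il1b, Il1a, Tnf, Il6, Lif and Il33, the inflammasome sensor Nlrp3, the NF-kappaB feedback inhibitors Nfkbia and Tnfaip3, and the prostaglandin synthase Ptgs2. They were chosen by name, and their UMIs (unique molecular identifiers, one per captured transcript) were summed over barcodes of 13 marker-gated cell types, 5 immune and 8 stromal. Droplet sequencing of the 3' ends of transcripts had been run on aortic cells of ApoE-/- mice, which lack apolipoprotein E and develop atherosclerotic plaques. Both samples came from mice 20 weeks old. One sample is labelled MSC_ITGB3 and the other HFD, and the series text describes HFD-fed mice with or without MSC_ITGB3 treatment. How many mice stand behind each sample is not stated in the labels.

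The counts were deposited as 1 matrix holding 2 libraries, told apart by a suffix on the barcode. Neither suffix can be tied to a sample by a label, so the names library 2 and library 1 are used, and no comparison of MSC_ITGB3 with HFD was made. Each library stands alone, so no test was possible. Values in brackets give exact 95% limits for counting error alone. A ratio between libraries describes these 2 libraries. Library 2 held 124266676 UMIs and library 1 held 110257209. Barcodes with 3000 or more UMIs and at most 20% mitochondrial UMIs numbered 6540 in library 2 and 6332 in library 1, with median depths of 6031 UMIs in library 2 and 8746 UMIs in library 1. Of these, 4829 in library 2 and 4857 in library 1 fell into a described type, and 17 barcode sequences occurred in both libraries. The types ranged from 21 neutrophil to 1561 smooth muscle barcodes in library 2, and from 47 dendritic to 1359 fibroblast barcodes in library 1. The names mean resemblance in marker genes only. In the pooled libraries all 10 neutrophil markers, all 11 macrophage markers and all 10 T cell markers were at 20 CPM or more in their own type and at least 2 times the level elsewhere, against 9 of 11 for fibroblasts, 7 of 9 for monocytes and 6 of 8 for pericytes. The gates were built on these same markers, so the counts describe the gates and are no test of the names. A pair of stromal types kept the names of their leading genes, Igfbp2/Ccn5 and Penk/Prg4. Apoe itself was at 7.17 CPM (the gene's part of the type's UMIs on the usual CPM scale) in macrophages of library 2 and 12.5 CPM in those of library 1.

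NF-kappaB is a family of transcription factors held in the cytoplasm by inhibitor proteins until receptors for bacterial products, interleukin-1 or tumour necrosis factor lead to destruction of those inhibitors. The freed factor switches on cytokine genes and also the genes of its own inhibitors, among them Nfkbia, which encodes the inhibitor IkappaB-alpha, and Tnfaip3, which encodes the ubiquitin-editing enzyme A20. In atherosclerotic plaques the pathway is known for its activity in macrophages, and interleukin-1 beta, whose precursor is cut by caspase-1 in the Nlrp3 inflammasome, is a known driver of plaque inflammation.

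The promoter windows of these genes are shown where they hold letters that NF-kappaB is known to bind. RefSeq lists 13 start windows of 300 bases (250 before to 50 after the start, build GRCm38.p6) for the 10 genes. A match to the NF-kappaB consensus on either strand was found in 4 of the 13, belonging to Il6, Nlrp3, Nfkbia and Tnfaip3. It was found in 4.51% of all 32851 such windows. Other patterns were scanned in the same windows. A looser one, which fixes the outer letters only, was found in 9 of the 13 and in 50.8% of all windows. A single fixed sequence was found in 0 of the 13 and in 0.155% of all windows. The windows run 5' to 3' on the gene's strand, with consensus matches in capitals.
Il6 (chr5:30012864-30013163, plus strand): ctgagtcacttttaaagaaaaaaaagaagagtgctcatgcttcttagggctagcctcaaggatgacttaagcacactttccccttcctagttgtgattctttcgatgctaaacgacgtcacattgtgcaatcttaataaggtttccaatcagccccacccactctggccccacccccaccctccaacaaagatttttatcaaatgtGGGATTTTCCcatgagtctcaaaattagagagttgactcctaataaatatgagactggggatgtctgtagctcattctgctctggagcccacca
Nfkbia (chr12:55492598-55492897, minus strand): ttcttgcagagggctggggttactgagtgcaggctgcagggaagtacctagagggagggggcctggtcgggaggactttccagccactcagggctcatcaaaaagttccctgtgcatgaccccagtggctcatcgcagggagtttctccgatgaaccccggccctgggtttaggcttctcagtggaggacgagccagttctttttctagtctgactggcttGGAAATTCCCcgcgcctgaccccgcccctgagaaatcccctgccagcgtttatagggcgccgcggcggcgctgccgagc
Tnfaip3 (chr10:19015361-19015660, minus strand): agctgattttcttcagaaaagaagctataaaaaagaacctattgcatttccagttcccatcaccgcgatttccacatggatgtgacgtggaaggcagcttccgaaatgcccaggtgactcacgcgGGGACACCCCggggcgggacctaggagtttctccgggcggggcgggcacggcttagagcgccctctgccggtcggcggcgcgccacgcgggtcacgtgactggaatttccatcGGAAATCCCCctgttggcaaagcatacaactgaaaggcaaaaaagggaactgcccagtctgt
Nlrp3 (chr11:59541319-59541618, plus strand): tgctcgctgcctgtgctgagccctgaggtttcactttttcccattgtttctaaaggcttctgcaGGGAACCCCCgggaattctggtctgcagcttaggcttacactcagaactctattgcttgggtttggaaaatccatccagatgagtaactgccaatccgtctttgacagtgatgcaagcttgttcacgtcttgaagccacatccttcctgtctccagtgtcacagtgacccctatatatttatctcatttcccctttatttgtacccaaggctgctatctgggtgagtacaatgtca
The Il6 match GGGATTTTCC began 44 bases before the start and the Nfkbia match GGAAATTCCC 29 bases before it. Tnfaip3 had a pair of matches, GGGACACCCC and GGAAATCCCC, at 125 and 12 bases before its start. These are letters in a window only, and the data hold no measurement of binding.

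The 10 genes divided between the immune and the stromal types. In both libraries 6 of the 10 were highest in an immune type, where 43.5% of 14656 genes with at least 100 UMIs were in library 2 and 38.8% in library 1. The other 4 were highest in a stromal type, as 56.5% of genes were in library 2 and 61.2% in library 1. Neutrophils were the highest type for 5 of the 10 in library 2 and 4 in library 1, against 10.9% of genes in library 2 and 8.45% in library 1. These counts include Il1a in library 2, which rested on 3 neutrophil UMIs, and Tnf in library 1. In both cases the lead over macrophages was within counting error. Fibroblasts were the highest for 2 in library 2 and 3 in library 1, against 4.92% and 5.49% of genes. Il1b, Il1a, Tnf and Nlrp3 had nearly all of their UMIs in immune barcodes, at 94.0% to 97.6% in library 2 and 95.3% to 99.2% in library 1. Il6, Lif, Il33 and Ptgs2 had 2.50% to 5.21% of theirs in immune barcodes of library 2 and 1.57% to 4.74% in library 1. Nfkbia and Tnfaip3 were spread over both compartments, Nfkbia with 16.0% of its UMIs in immune barcodes of library 2 and 14.9% in library 1, and Tnfaip3 with 38.6% in library 2 and 31.5% in library 1.

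**Figure D1:**
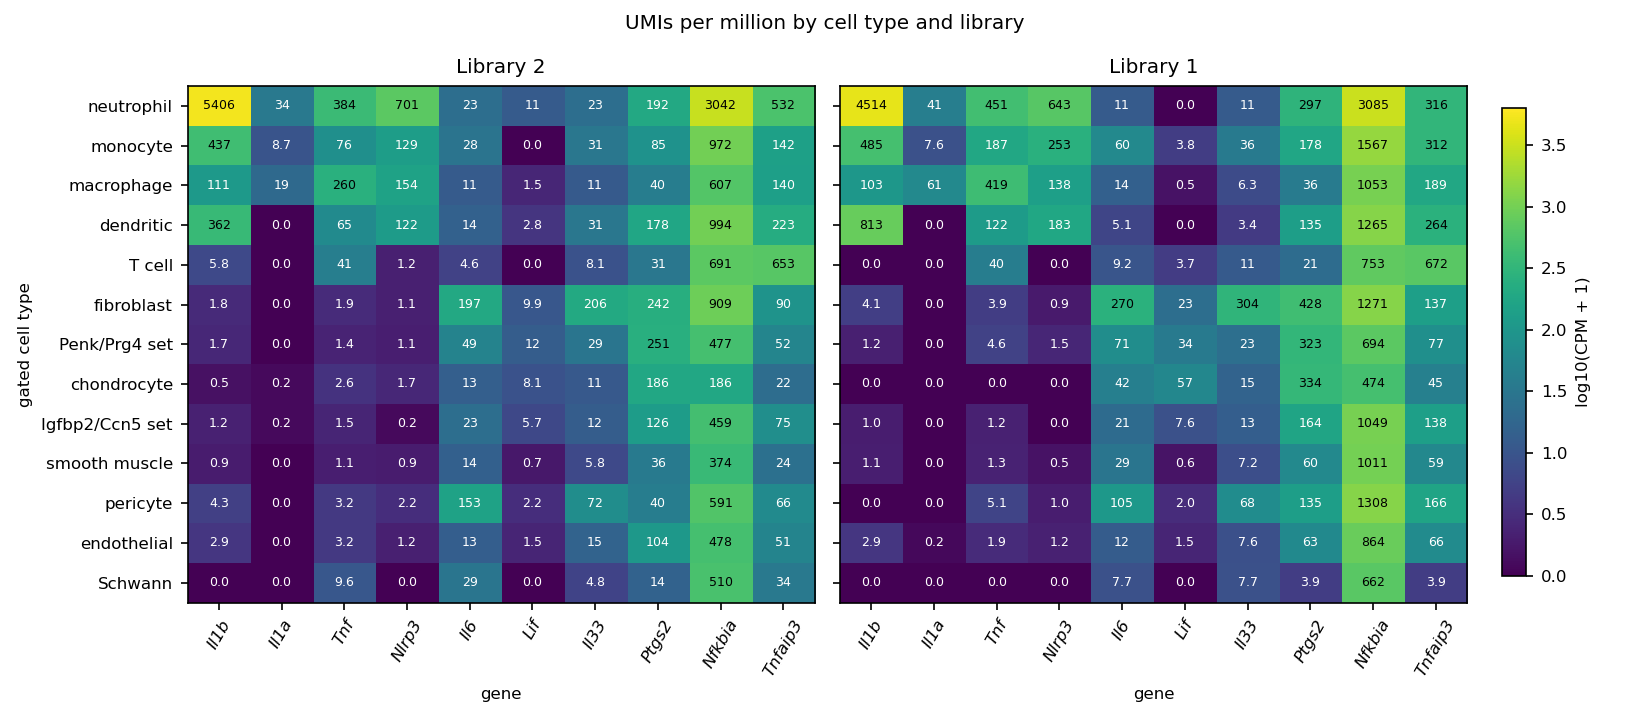
Level of the 10 genes in 13 marker-gated cell types, library 2 on the left and library 1 on the right. Colour is log10(CPM + 1), the printed number is CPM, rows are cell types and columns are genes. The Il1b, Il1a, Tnf and Nlrp3 columns are brightest in the neutrophil or macrophage rows, and the T cell row is dark for Il1b, Il1a and Nlrp3. Il6 and Il33 are brightest in fibroblasts, and Nfkbia is bright in every row.

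Il1b encodes interleukin-1 beta. Neutrophils stood far above the other types at 5406 CPM (4932 to 5913, 478 UMIs) in library 2 and 4514 CPM (4262 to 4777, 1200 UMIs) in library 1. That was 12.4 times (10.5 to 14.7) the next type in library 2, monocytes at 437 CPM, and 5.55 times (4.99 to 6.19) the next in library 1, dendritic cells at 813 CPM. Macrophages came lower, at 111 CPM (101 to 122) in library 2 and 103 CPM (94.96 to 112) in library 1. The stromal types together were at 1.43 CPM in library 2 and 2.399 CPM in library 1, below free RNA at 23.4 CPM in library 2 and 38.0 CPM in library 1. Free RNA is the pooled content of barcodes with 10 to 100 UMIs. The neutrophils were 21 barcodes in library 2 and 63 in library 1, and they held 36.7% of the gene's UMIs in the described types of library 2 and 43.3% in library 1.

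At an equal 3000 UMIs per barcode, 85.7% of neutrophils had an Il1b UMI in library 2 and 82.5% in library 1. In macrophages the share was 9.27% in library 2 and 11.5% in library 1. In smooth muscle barcodes it was 0.513% in library 2 and 0.697% in library 1. Unthinned, neutrophils gave 85.7% at a median depth of 3561 UMIs in library 2 and 87.3% at 3614 UMIs in library 1. Macrophages gave 15.1% at 6044 UMIs in library 2 and 18.0% at 10081 UMIs in library 1. Most neutrophil barcodes carried the transcript and most macrophage barcodes did not.

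Il1a, the other interleukin-1, lies on the same strand of chromosome 2 (chr2:129299610-129309972, minus strand, GRCm38) as Il1b (chr2:129364570-129371139) and followed a different order. In library 2 it was at 18.7 CPM (14.7 to 23.5, 73 UMIs) in macrophages and at 33.9 CPM in neutrophils, where it rested on 3 UMIs. In library 1 macrophages had 60.7 CPM (54.4 to 67.4, 344 UMIs) and neutrophils 41.4 CPM from 11 UMIs. The intervals of the neutrophil to macrophage ratio spanned 1 in both libraries, so the 2 types were not separable at this depth. In library 1 neutrophils were first with barcodes from 1000 UMIs, after thinning and without barcodes over 20000 UMIs. Macrophages held 89.0% of the UMIs in library 2 and 94.5% in library 1. Dendritic cells, T cells and fibroblasts had no Il1a UMI in either library, which at 3 counts allows for dendritic cells up to 8.47 CPM in library 2 and 5.14 CPM in library 1.

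Tnf encodes tumour necrosis factor. It was at 385 CPM (266 to 537) in neutrophils and 260 CPM (244 to 276) in macrophages of library 2, and at 451 CPM (374 to 540) and 419 CPM (402 to 436) in those of library 1. Neutrophils exceeded macrophages by 1.48 times (1.02 to 2.08) in library 2 and by 1.08 times (0.890 to 1.29) in library 1, so the interval lay above 1 in library 2 alone. Macrophages stood above neutrophils with either gate on summed markers in both libraries, and in library 1 also with barcodes of several types kept, without barcodes over 20000 UMIs and with markers at 4 times free RNA. Macrophages, with 410 barcodes in library 2 and 390 in library 1, held 83.5% of the Tnf UMIs in library 2 and 82.3% in library 1. Among T cells, 12.0% in each library had a Tnf UMI at 3000 UMIs per barcode, where macrophages had 43.7% in library 2 and 49.2% in library 1. Smooth muscle barcodes had 0.448% in library 2 and 0.871% in library 1.

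Nlrp3, the sensor protein of the inflammasome, was highest in neutrophils, as Il1b was. They had 701 CPM (538 to 899) in library 2 and 643 CPM (551 to 747) in library 1. Macrophages were next in library 2 at 154 CPM, which neutrophils exceeded 4.55 times (3.45 to 5.92), and monocytes were next in library 1 at 253 CPM, exceeded 2.54 times (2.06 to 3.13). T cells had 1.16 CPM in library 2 and no UMI in library 1, which allows up to 2.75 CPM, and the stromal types together 1.05 CPM in library 2 and 0.818 CPM in library 1. Over the 26 points given by 13 types in 2 libraries, Il1b and Nlrp3 had a Pearson r of 0.98 on log2(CPM + 10), and Tnf and Nlrp3 of 0.93. Those points share libraries and depth, and the value describes them only.

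In library 1, Il1a and Il1b were highest in different macrophage subsets. The subsets were gated by marker genes that include none of the 10 genes: a Gpnmb/Cd5l subset with lipid-handling genes, a Lyve1/F13a1 subset, and a Cd72/MHC class II subset. The Gpnmb/Cd5l subset had 18 barcodes in library 2, too few for a level, and 81 in library 1. In library 1 Il1a was at 129 CPM (114 to 146) in the Gpnmb/Cd5l subset and 14.1 CPM in the Cd72/MHC class II subset, a ratio of 9.18 (5.17 to 18.0). Il1b ran the other way, at 13.1 CPM in the Gpnmb/Cd5l subset and 525 CPM (477 to 576) in the Cd72/MHC class II subset, a ratio of 0.0250 (0.0163 to 0.0369). Nlrp3 was lower in the Gpnmb/Cd5l subset too, at 76.3 against 261 CPM.

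Depth differed between these subsets of library 1, with a median of 24393 UMIs in Gpnmb/Cd5l barcodes. Without barcodes over 20000 UMIs the ratios were 6.83 for Il1a and 0.164 for Il1b. The Cd72/MHC class II subset was present in both libraries, where its Il1b stood at 108 CPM (85.7 to 135) in library 2 and 525 CPM in library 1, and its Tnf at 273 CPM in library 2 and 710 CPM in library 1. Macrophages outside the 3 subsets had Il1b at 140.2 CPM (126 to 156) in library 2, above the Cd72/MHC class II subset there, and at 47.3 CPM in library 1. In the Lyve1/F13a1 subset Il1b was at 8.47 CPM in library 2 and 2.31 CPM in library 1 while Tnf reached 470 CPM in library 2 and 422 CPM in library 1, so barcodes of this subset carried Tnf almost without Il1b.

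**Figure D2:**
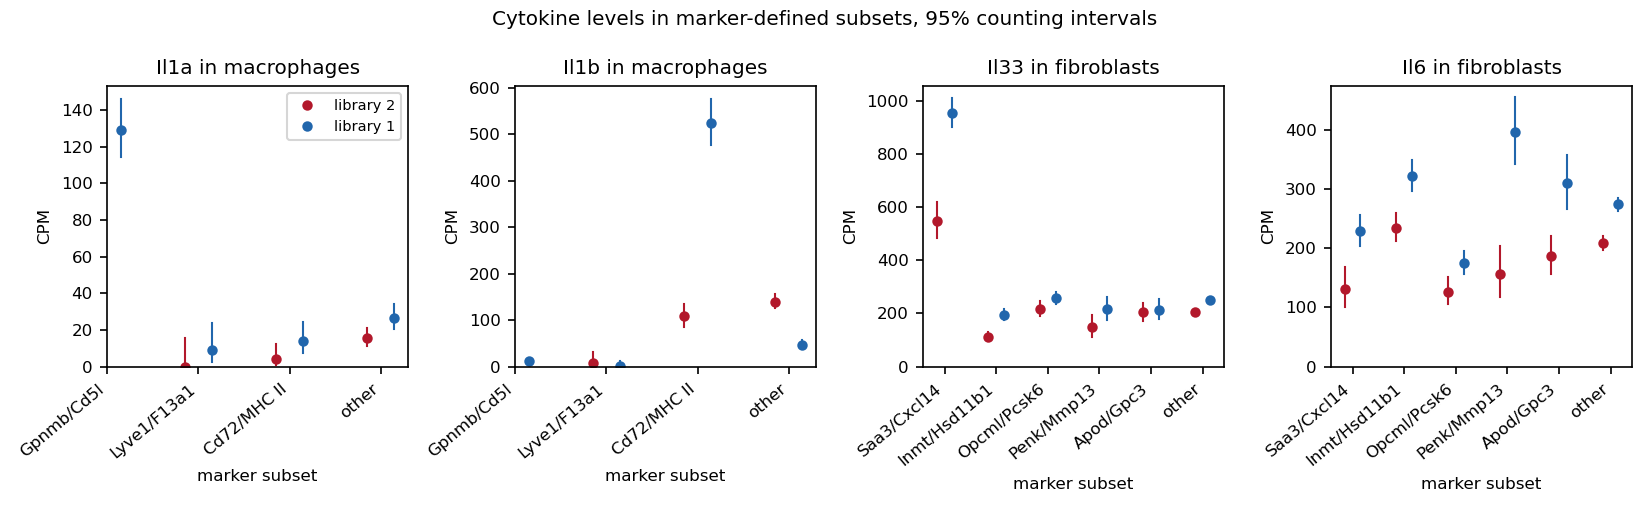
Il1a and Il1b in macrophage subsets, and Il33 and Il6 in fibroblast subsets, in CPM with exact 95% counting intervals. Red marks library 2 and blue library 1. Il1a is highest in the Gpnmb/Cd5l subset at 129 CPM in library 1, Il1b in the Cd72/MHC class II subset at 525 CPM in library 1, and Il33 in the Saa3/Cxcl14 subset in both libraries.

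The inflammatory transcripts of macrophages also tended to occur in the same barcodes. With every barcode thinned to 3000 UMIs, macrophages with a Tnf UMI (179 in library 2 and 192 in library 1) had Nlrp3 at 190 CPM in library 2 and 198 CPM in library 1. Those without one had 104 CPM in library 2 and 69.0 CPM in library 1. Il1b was at 108 CPM with and 56.3 CPM without a Tnf UMI in library 2, and at 132 CPM with and 72.4 CPM without one in library 1. With and without that UMI, Nfkbia was 626 against 531 CPM in library 2 and 1300 against 780 CPM in library 1. The few library 1 macrophages with an Il1a UMI, 27 barcodes, had more Tnf, at 765 against 367 CPM, but less Il1b, at 37.0 against 107 CPM.

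Il6 encodes the cytokine interleukin-6, which signals through the receptor subunit Il6st. It was highest in fibroblasts, at 197 CPM (188 to 206, 1927 UMIs) in library 2 and 270 CPM (261 to 278, 4135 UMIs) in library 1. Pericytes were next with 153 CPM in library 2 and 105 CPM in library 1, so fibroblasts exceeded them 1.29 times (1.09 to 1.54) in library 2 and 2.56 times (2.11 to 3.15) in library 1. Pericytes stood above fibroblasts in library 2 with barcodes of several types kept, after thinning to 3000 UMIs, and with markers required at 4 times free RNA. The summed level of the fibroblast markers in pericytes was 9046 CPM in library 2 and 8990 CPM in library 1. In fibroblasts it was 25600 CPM in library 2 and 26140 CPM in library 1. Its part in the pericyte level was not tested. Penk/Prg4 barcodes had 49.0 CPM in library 2 and 71.4 CPM in library 1. Macrophages, at 11.3 CPM in library 2 and 13.6 CPM in library 1, were below free RNA at 102 CPM in library 2 and 92.7 CPM in library 1.

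At 3000 UMIs per barcode, 26.6% of fibroblasts (24.2 to 29.2, 324 of 1216) had an Il6 UMI in library 2 and 28.4% (26.0 to 30.9, 386 of 1359) in library 1. In macrophages the share was 4.88% in library 2 and 3.33% in library 1. Unthinned, the fibroblast share was 37.7% at a median depth of 5701 UMIs in library 2 and 44.1% at 8395 UMIs in library 1. The macrophage share was 8.05% in library 2 and 8.72% in library 1. Single fibroblasts held up to 124 Il6 UMIs in library 2 and 97 in library 1.

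Il33 encodes interleukin-33, a nuclear cytokine released from damaged barrier and stromal cells. Fibroblasts again stood first, at 206 CPM (197 to 215, 2012 UMIs) in library 2 and 304 CPM (295 to 312, 4657 UMIs) in library 1. They exceeded pericytes, at 72.2 CPM in library 2 and 68.4 CPM in library 1, by 2.85 times (2.23 to 3.69) in library 2 and 4.43 times (3.48 to 5.73) in library 1. Schwann barcodes were first in library 1 with barcodes of several types kept and with markers at 4 times free RNA. Endothelial barcodes had 15 CPM in library 2 and 7.61 CPM in library 1, and both macrophages and endothelial barcodes were below the 62.3 CPM of free RNA in each library. Il6 and Il33 had a Pearson r of 0.89 over the same 26 points.

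Fibroblast subsets, again gated without the 10 genes, held Il6 and Il33 in unequal amounts. Il33 was highest in the Saa3/Cxcl14 subset, which carries acute-phase genes, at 550 CPM in library 2 and 955 CPM in library 1, and lowest of those compared in the Inmt/Hsd11b1 subset at 112 CPM in library 2 and 195 CPM in library 1. Their ratio was 4.92 (4.05 to 5.98) in library 2 and 4.89 (4.35 to 5.51) in library 1. The library 1 ratio was 1.89 without barcodes over 20000 UMIs, and the Saa3/Cxcl14 barcodes of that library had a median of 19009 UMIs. In contrast, Il6 was higher in the Inmt/Hsd11b1 subset, at 235 CPM in library 2 and 323 CPM in library 1, than in the Opcml/Pcsk6 subset, at 127 CPM in library 2 and 176 CPM in library 1, by 1.85 times in library 2 and 1.84 times in library 1. Saa3/Cxcl14 fibroblasts had Il6 at 131 CPM in library 2 and 229 CPM in library 1.

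Il6 and Ptgs2 transcripts were found together in fibroblasts, while Il6 and Il33 were not enriched in the same barcodes. After thinning, fibroblasts with an Il6 UMI had Ptgs2 at 361 CPM and those without at 160 CPM in library 2, and at 790 CPM with and 231 CPM without one in library 1. Il33 was at 179 against 206 CPM in library 2 and 253 against 240 CPM in library 1, and Lif at 11.3 against 7.85 CPM in library 2 and 32.8 against 13.4 CPM in library 1. The immediate-early genes, known to respond to cell handling, were summed in the same split. They stood at 18580 against 13240 CPM in library 2 and 17360 against 12920 CPM in library 1, and their part in the split was not tested. The summed fibroblast markers were close on both sides of the split, at 24840 against 25280 CPM in library 2 and 25710 against 25820 CPM in library 1.

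**Figure D3:**
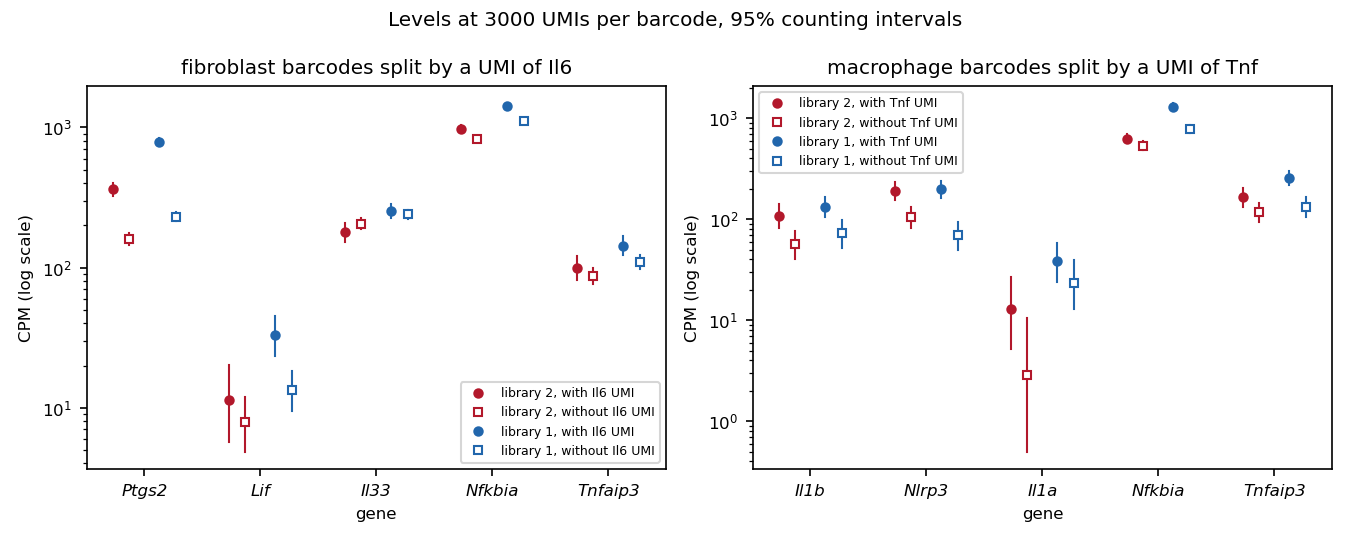
Levels after thinning each barcode to 3000 UMIs, in fibroblasts split by an Il6 UMI and macrophages split by a Tnf UMI, for library 2 and library 1, in CPM on a log axis. Filled points are barcodes with a UMI of the splitting gene, open points those without, and bars are exact 95% counting intervals. Ptgs2 separates most in the fibroblast panels, at 790 CPM with and 231 CPM without an Il6 UMI in library 1, and Nlrp3 separates in the macrophage panels.

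Lif, leukemia inhibitory factor, is a cytokine of the interleukin-6 family and was the lowest of the stromal genes. In library 2 Penk/Prg4 barcodes had 12.2 CPM, neutrophils 11.3 CPM from 1 UMI and fibroblasts 9.92 CPM. In library 1 chondrocytes had 57.2 CPM, Penk/Prg4 barcodes 34.1 CPM and fibroblasts 22.6 CPM. Chondrocytes exceeded the Penk/Prg4 type 1.67 times (1.23 to 2.27) in library 1, while no order among the leading types could be read in library 2. The Penk/Prg4 type was first in library 1 after thinning and without barcodes over 20000 UMIs. At 3000 UMIs 2.14% of fibroblasts in library 2 and 3.90% in library 1 had a Lif UMI. Inside the fibroblast gate, the Penk/Mmp13 subset had 31.8 CPM and the Inmt/Hsd11b1 subset 1.87 CPM in library 2, a ratio of 17.0 (4.49 to 94.9). In library 1 they had 43.1 CPM and 6.98 CPM, a ratio of 6.17 (2.95 to 13.4). The Penk/Mmp13 subset had Il6 at 156 CPM in library 2 and 396 CPM in library 1, so the order of these subsets by Il6 differed between the libraries.

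Ptgs2 encodes the inducible cyclooxygenase, which makes the precursor of prostaglandins. Its levels lay close together in the leading types. In library 2 the Penk/Prg4 type had 251 CPM (235 to 268) and fibroblasts 242 CPM (233 to 252), which differed by less than the counting error. In library 1 fibroblasts were first at 428 CPM (418 to 439), above chondrocytes at 334 CPM by 1.28 times (1.17 to 1.41), and the Penk/Prg4 type had 323 CPM. Neutrophils carried 192 CPM in library 2 and 297 CPM in library 1. Dendritic cells carried 178 CPM in library 2 and 135 CPM in library 1, whereas macrophages had 39.9 CPM in library 2 and 36.5 CPM in library 1. Free RNA was higher, at 148 CPM in library 2 and 134 CPM in library 1. Ptgs2os, an antisense RNA annotated on the other strand just upstream of Ptgs2, had the pattern most like it, at a Pearson r of 0.80. The sources used here do not say whether the counting used strand, so reads of this pair may not be fully separated.

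Nfkbia was measured in every type and had the most UMIs of the 10 genes over the described types. Neutrophils had 3042 CPM in library 2 and 3085 CPM in library 1. They exceeded the next type, dendritic cells at 994 CPM in library 2, by 3.06 times (2.60 to 3.597), and monocytes at 1567 CPM in library 1 by 1.97 times (1.80 to 2.15). The lowest level was that of chondrocytes, at 186 CPM in library 2 and 474 CPM in library 1. Pericytes had 591 CPM in library 2 and 1308 CPM in library 1. Fibroblasts, at 909 CPM in library 2 and 1271 CPM in library 1, held 35.3% of its UMIs in library 2 and 30.2% in library 1. Free RNA had 661 CPM in library 2 and 878 CPM in library 1, and 8 of the 13 types were below it in library 2 and 5 of 13 in library 1. Chondrocytes, endothelial, Schwann and Penk/Prg4 barcodes were below it in both libraries.

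Tnfaip3 was the one gene of the 10 that was highest in T cells, at 653 CPM (600 to 709) in library 2 and 672 CPM (624 to 722) in library 1. Across all genes 12.1% were highest in that type in library 2 and 14.2% in library 1. Neutrophils followed with 532 CPM (391 to 707) in library 2 and 316 CPM (252 to 391) in library 1. T cells exceeded them 1.23 times (0.911 to 1.69) in library 2, where the order was within counting error, and 2.13 times (1.69 to 2.70) in library 1. At 3000 UMIs a Tnfaip3 UMI was found in 69.2% of T cells in library 2 and 77.3% in library 1. Among smooth muscle barcodes the share was 6.98% in library 2 and 12.6% in library 1. The gene most like it over the 26 points was Tnip1, at r = 0.95, which encodes a protein that binds A20.

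The libraries were then set side by side within each type, for genes with at least 20 UMIs over both. The threshold was a 1.5-fold difference, and counts of genes past it carry no test. In fibroblasts 5 of the 9 genes measured were lower in library 2 and none was higher, where 4.89% of all 14264 genes were lower and 9.45% higher. Those 5 were Lif at a ratio of 0.439 (0.347 to 0.551), Ptgs2 at 0.566 (0.540 to 0.593), Tnfaip3 at 0.652 (0.602 to 0.706), Il1b at 0.448 and Tnf at 0.497. Il1b and Tnf were below free RNA in fibroblasts. Il33, at 0.678 (0.643 to 0.715), and Il6, at 0.731 (0.692 to 0.772), fell inside the threshold. The median of the 9 on the log2 scale was -0.62, beside 0.07 over all genes.

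In macrophages 3 of 9 were lower in library 2, against 5.18% of genes, and 1 was higher, against 18.9%. Il1a was at 0.308 (0.236 to 0.398), Nfkbia at 0.577 (0.550 to 0.605) and Tnf at 0.620 (0.576 to 0.668). Macrophage Nfkbia was below free RNA in library 2 alone. Il1b was inside the threshold at 1.07 (0.947 to 1.22), as were Nlrp3 at 1.11 and Tnfaip3 at 0.739 (0.666 to 0.820). The macrophage genes as a whole were shifted by 0.13 on the log2 scale, and after that shift was removed Tnf stood at 0.569, Nfkbia at 0.529 and Tnfaip3 at 0.678. The Il1a level of library 1 rested on deep barcodes, and without those over 20000 UMIs it was 21.2 CPM, with a ratio of 0.606. Il33 was the higher gene at 1.73 (1.09 to 2.78), at levels below free RNA, and its ratio was 0.741 with a stricter gate on summed markers. The fibroblast markers summed to 2979 CPM in macrophages of library 2 and 1127 CPM in those of library 1, and the smooth muscle markers to 2145 CPM in library 2 and 655 CPM in library 1. Their part in these ratios was not tested.

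Smooth muscle barcodes had 4 of 8 genes lower in library 2, against 6.56% of all genes, and 1 higher, against 7.48%. Nfkbia was at 374 CPM in library 2 and 1011 CPM in library 1, a ratio of 0.370 (0.358 to 0.381). Tnfaip3 was at 0.416 (0.367 to 0.471), Il6 at 0.465 and Ptgs2 at 0.602. In smooth muscle Tnfaip3, Il6 and Ptgs2 were below free RNA in both libraries, and Nfkbia was below it in library 2 alone. The higher gene was Nlrp3, with an interval of 0.677 to 5.25 and a level below free RNA. The median of the 8 was -0.53 on the log2 scale, beside 0.04 over all genes.

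Chondrocytes had 5 of 6 genes lower in library 2, against 8.69%, and none higher, against 20.4%. The lower genes were led by Lif at 0.142 (0.0926 to 0.213) and Il6 at 0.311. Without barcodes over 20000 UMIs these ratios were 0.495 for Lif and 1.65 for Il6. In chondrocytes Il6, Nfkbia and Tnfaip3 were below free RNA in both libraries. The chondrocyte barcodes differed in depth, with medians of 4544 UMIs in 372 barcodes of library 2 and 17728 UMIs in 66 barcodes of library 1. Monocytes had 6 of 8 lower, against 13.4%, and none higher, against 23.8%, the lower ones including Tnf at 0.409 and Nlrp3 at 0.509. The other lower ratios were those of Tnfaip3, Il6, Ptgs2 and Nfkbia, and with markers required at 4 times free RNA Il6 stood at 3.401 and Ptgs2 at 1.45. Monocyte Il6 was below free RNA in both libraries, and monocyte Ptgs2 in library 2 alone. All monocyte genes were shifted by 0.12 on the log2 scale. In dendritic cells 3 of 6 were lower, against 13.2%, and none higher, against 21.4%, with Il1b at 0.444 (0.363 to 0.541), Tnf at 0.534 (0.319 to 0.866) and Nlrp3 at 0.663 (0.454 to 0.953).

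Pericytes had 3 of 5 lower, against 11.2%, and none higher, against 13.7%, with Ptgs2 at 0.296, Tnfaip3 at 0.395 and Nfkbia at 0.452, while Il6 was at 1.45 (1.12 to 1.89). The 3 lower genes were below free RNA in pericytes of library 2 alone. In the Igfbp2/Ccn5 type 2 of 6 were lower, against 4.52%, and none higher, against 10.6%. These were Nfkbia at 0.438 and Tnfaip3 at 0.542, both below free RNA in library 2 alone. In the Penk/Prg4 type 1 of 6 was lower, against 5.64%, and none higher, against 12.8%. The lower gene was Lif at 0.357 (0.243 to 0.518), where median depths were 5340 UMIs in library 2 and 23280 UMIs in library 1. T cells had none of 4 past the threshold, where 9.32% of genes were lower and 19.9% higher, with Nfkbia at 0.917 (0.824 to 1.02) and Tnfaip3 at 0.972 (0.869 to 1.09). Schwann barcodes had 1 gene measured, Nfkbia at 0.771 (0.599 to 0.987), where 16.7% of genes were lower and 18.8% higher.

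Neutrophil counts lay near the shares of all genes, and endothelial barcodes went partly the other way. In neutrophils Tnfaip3 was higher in library 2, at 1.68 (1.15 to 2.43), 1 of 6 genes where 18.7% of all were higher, and Ptgs2 was lower at 0.647 (0.359 to 1.10), where 22.8% were lower. The Tnfaip3 ratio was 0.936 when barcodes down to 1000 UMIs were taken in. Neutrophil Il1b, at 1.20 (1.07 to 1.33), and Nfkbia, at 0.986 (0.856 to 1.13), were inside the threshold. In endothelial barcodes 3 of 9 genes were higher, against 13.3%: Ptgs2 at 1.63 (1.44 to 1.85), Il33 at 1.97 (1.39 to 2.77) and Tnf at 1.69 (0.758 to 3.49). All 3 were below their free RNA level there, and the Il33 ratio was 0.941 with the stricter summed gate. Nfkbia was the 1 lower gene at 0.554 (0.525 to 0.583), against 4.51%, and it too was below free RNA in both libraries. The fibroblast markers summed to 4259 CPM in endothelial barcodes of library 2 and 2674 CPM in those of library 1, and their part was not tested.

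Nfkbia was the gene with the same direction throughout. It was lower in library 2 in 13 of 13 types, at ratios between 0.370 in smooth muscle and 0.986 in neutrophils. The intervals spanned 1 in neutrophils (0.856 to 1.13) and T cells (0.824 to 1.02). Nfkbia in free RNA was also lower in library 2, at 661 CPM against 878 CPM in library 1, and 8 of the 13 types were below it in library 2. The 13 types share the same 2 libraries. Of 1945 genes with enough UMIs in every type, 12 or 0.617% were lower in all 13, among them Nfkbia.

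**Figure D4:**
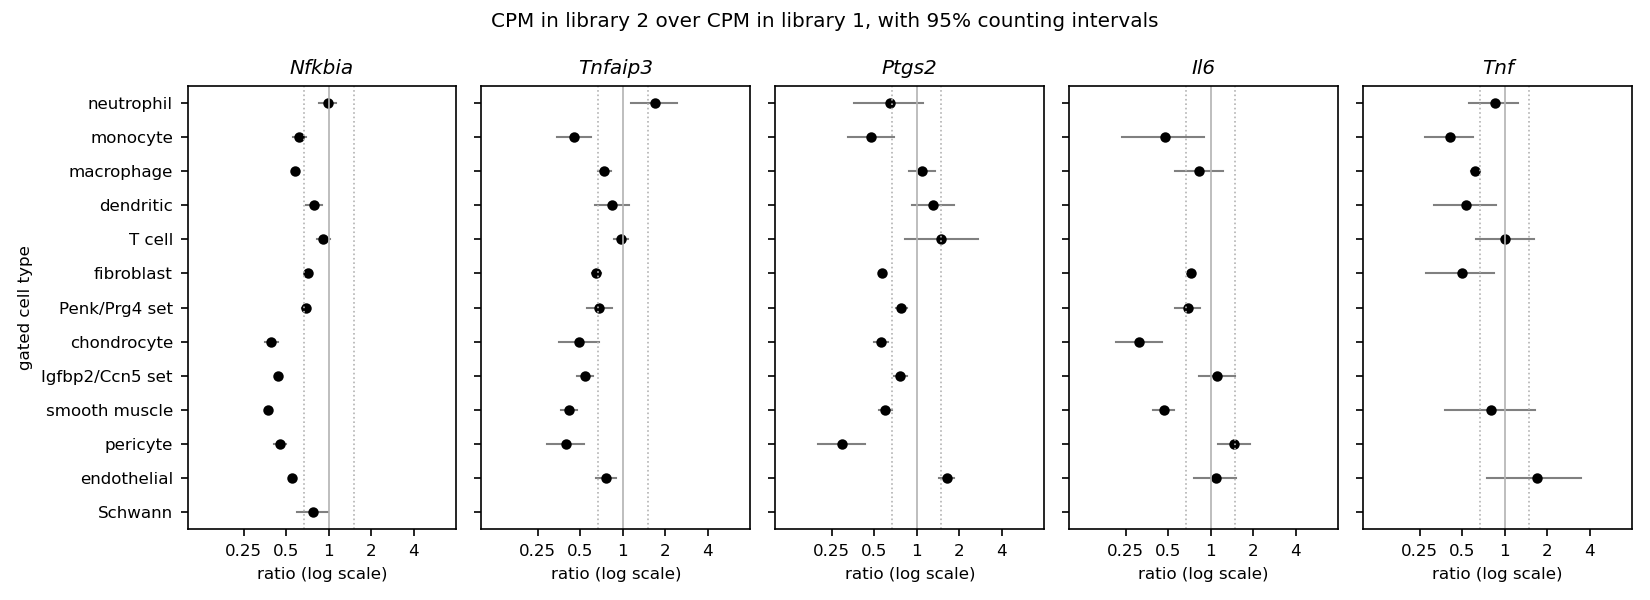
Ratio of library 2 to library 1 for Nfkbia, Tnfaip3, Ptgs2, Il6 and Tnf in each cell type with at least 20 UMIs, on a log axis. Points are ratios of CPM, bars exact 95% counting intervals, the solid line marks a ratio of 1 and dotted lines 1.5-fold in either direction. Nfkbia lies left of 1 in all 13 types, while Ptgs2 lies right of 1 in endothelial barcodes at 1.63.

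The wider pathway was described through lists of genes whose most abundant members are named. Of 14 other feedback genes, 13 were highest in an immune type in each library, against 43.5% of all genes in library 2 and 38.8% in library 1. Zfp36, which encodes an mRNA-destabilising protein, was in neutrophils at 1696 CPM in library 2 and 1682 CPM in library 1. Nfkbiz, an atypical IkappaB, was in neutrophils at 1086 CPM in library 2 and 929 CPM in library 1. Socs3, an inhibitor of cytokine signalling, was in Schwann barcodes at 954 CPM in library 2 and 1421 CPM in library 1. Between libraries, 8 of 12 feedback genes measured in smooth muscle were lower in library 2 and none higher, with a median log2 ratio of -0.69. Zfp36 was at 0.442 there, Socs3 at 0.449 and Nfkbiz at 0.642. In macrophages none of 14 was lower and 1 higher, with a median of 0.05, and Zfp36 was at 1.33 and Nfkbiz at 1.40. In fibroblasts 1 of 13 was lower, with a median of -0.21. The all-gene shares given above apply to these counts, 6.56% lower and 7.48% higher in smooth muscle, 5.18% and 18.9% in macrophages, and 4.89% and 9.45% in fibroblasts. Pericytes had 7 of 11 lower and 1 higher, against 11.2% and 13.7%, with a median of -0.67. The Igfbp2/Ccn5 type had 5 of 13 lower and none higher, against 4.52% and 10.6%, with a median of -0.54. Schwann barcodes had 3 of 7 higher and none lower, against 18.8% and 16.7%, with a median of 0.53.

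The immediate-early genes were read in the same types. In smooth muscle 9 of 11 were lower in library 2, against 6.56% of all genes, with a median of -0.86, and Fos, the most abundant, was at 2174 CPM in library 2 and 3951 CPM in library 1. The Igfbp2/Ccn5 type also had 9 of 11 lower and none higher, against 4.52% and 10.6%, with a median of -0.76. Pericytes had 2 of 11 lower, against 11.2% (median -0.41). In macrophages 5 of 11 were higher, against 18.9%, and none lower, against 5.18%, with a median of 0.40 and Fos at 1487 CPM in library 2 and 1188 CPM in library 1. T cells had 5 of 11 higher, against 19.9% (median 0.56), and neutrophils 4 of 11, against 18.7% (median 0.35). In fibroblasts none of 11 passed in either direction, with a median of 0.22, where 4.89% of all genes were lower and 9.45% higher. Fos, Junb and Egr1 were all highest in Schwann barcodes in both libraries. The part of handling in the smooth muscle and Igfbp2/Ccn5 ratios was not tested.

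Of the NF-kappaB subunits and their kinases, none of 10 was past the threshold in macrophages (median 0.18) or fibroblasts (median -0.14). Of all genes 5.18% were lower and 18.9% higher in macrophages, and 4.89% and 9.45% in fibroblasts. In smooth muscle 1 of 10 was lower (median -0.27), against 6.56%. Chondrocytes had 3 of 10 lower (median -0.45), against 8.69% of all genes, and monocytes 2 of 9 lower (median -0.39), against 13.4%. Schwann barcodes had 3 of 5 higher (median 0.63), against 18.8%. Nfkb1, which encodes a DNA-binding subunit, was highest in T cells at 700 CPM in library 2 and 546 CPM in library 1. Rel, the lymphoid and myeloid subunit, was highest in dendritic cells at 655 CPM in library 2 and 839 CPM in library 1. Rela was highest in Schwann barcodes at 169 CPM in library 2 and 123 CPM in library 1. Its intervals there overlapped those of neutrophils in library 2 and monocytes in library 1.

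Receptors of these cytokines were found on both sides of the immune and stromal divide, with 7 of 10 highest in an immune type in library 2, against 43.5% of all genes, and 5 in library 1, against 38.8%. Il6st, the signalling subunit shared by interleukin-6 and leukemia inhibitory factor, was highest in endothelial barcodes at 548 CPM in library 2 and 631 CPM in library 1. The oncostatin receptor Osmr was highest in fibroblasts at 203 CPM in library 2 and 199 CPM in library 1, beside pericytes at 190 and 197 CPM. Tnfrsf1a, a receptor for tumour necrosis factor, was highest in neutrophils at 238 CPM in library 2 and 211 CPM in library 1. Endothelial barcodes followed at 143 and 177 CPM. For both genes the intervals of these leading types overlapped in each library. In fibroblasts none of 9 receptors passed, where 4.89% of all genes were lower and 9.45% higher. In macrophages 3 of 9 were higher in library 2, against 18.9% of all genes. Among them was Osmr, at 30.2 CPM in library 2 and 12.5 CPM in library 1. The fibroblast marker sums in macrophages are given above, and their part in the macrophage Osmr ratio was not tested.

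Among 8 inflammasome genes, 7 were highest in an immune type in library 2 and all 8 in library 1, against 43.5% and 38.8% of all genes. Pycard, the adaptor, was highest in monocytes at 293 CPM in library 2 and 321 CPM in library 1, and Casp4 in Schwann barcodes at 395 CPM in library 2 and in neutrophils at 211 CPM in library 1. The DNA sensor Aim2 was highest in macrophages of library 2 at 107 CPM and in T cells of library 1 at 121 CPM. T cells of library 2 had 88.2 CPM and dendritic cells of library 1 108 CPM, with intervals that overlapped those of the highest type. In macrophages 2 of 8 were higher in library 2, near the 18.9% of all genes, with Aim2 at 1.75 among them, and none was lower.

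Of the prostaglandin genes 7 of 10 were highest in a stromal type in each library, near the 56.5% of all genes in library 2 and 61.2% in library 1. Ptgis, the prostacyclin synthase, was highest in smooth muscle, at 1157 CPM in library 2 and 1047 CPM in library 1. Pla2g4a, the phospholipase that releases arachidonic acid, was highest in chondrocytes at 132 CPM in library 2 and 112 CPM in library 1, and Ptgs1, the constitutive cyclooxygenase, in endothelial barcodes at 60.9 CPM in library 2 and 81.7 CPM in library 1. The Penk/Prg4 type had Pla2g4a at 90.9 CPM in library 1 and Ptgs1 at 59.5 CPM in library 2, where the intervals overlapped. Between libraries, 2 of 7 were higher and 1 lower in macrophages, where 18.9% of all genes were higher and 5.18% lower, and 1 of 9 was higher in fibroblasts, against 9.45%. Ptgis was one of the higher genes in macrophages, at 93.2 CPM in library 2 and 32.8 CPM in library 1. The smooth muscle marker sums in macrophages are given above, and their part in the Ptgis ratio was not tested.

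Of 10 related cytokines 8 reached 100 UMIs, and 6 of those were highest in an immune type, against 43.5% of all genes in library 2 and 38.8% in library 1. Csf1, the macrophage growth factor, was highest in neutrophils at 464 CPM in library 2 and 425 CPM in library 1, and Tnfsf9 in dendritic cells at 84.7 CPM in library 2 and 130 CPM in library 1. Il10, an anti-inflammatory cytokine, was at 18.7 CPM in macrophages of library 2 and 50.4 CPM in those of library 1, a ratio of 0.371 (0.282 to 0.481). It was the 1 related cytokine of 5 past the threshold in macrophages, where 5.18% of all genes were lower.

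Genes whose pattern over the 26 points was most like each of the 10 were named by Pearson r on log2(CPM + 10), as a description of points that share libraries. Il1b was followed by Slc2a6 and Fgr at 0.99 and Ptafr at 0.98, and Nlrp3 by Fgr, Ptafr and Pira2 at 0.99. Tnf was most like Lilrb4a, Slc15a3 and Lilr4b at 0.99, and Il1a like Hk3 and B430306N03Rik at 0.97 and C5ar1 at 0.96. Among stromal genes, Il33 was most like Fbln1 (0.92), Dpt (0.90) and Sntg1 (0.89), and Il6 like Il33 (0.89), C3 (0.84) and Enpp3 (0.83). Among the genes most like Lif were Gm17455 at 0.85 and Gm16835 at 0.83. Nfkbia had no close neighbour, with Dusp1 at 0.81 and Pygl and Ehd1 at 0.79, and Tnfaip3 followed Tnip1, then Fam107b at 0.90 and Nfkbid at 0.88. After Ptgs2os, Ptgs2 was most like Il13ra1 at 0.79 and Sra1 at 0.77.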

How the data were processed

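UMI counts per gene and barcode were used as deposited by the authors, unfiltered. Cell Ranger 6.0.1 made the matrix, per the file headers. The labels' protocols name Chromium 3' v3 chemistry, and the submitters' processing notes name mm10, bcl2fastq, Cell Ranger and Seurat. The sources used here state neither the annotation nor the strand setting. Every analysis below used Python 3.11.15, numpy 2.4.6, scipy 1.17.1 and pandas 2.3.3.

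Barcodes with at least 3000 UMIs and at most 20% mitochondrial UMIs were kept. A marker counted when present at 2 or more times its expectation from free RNA (barcodes of 10 to 100 UMIs). A type needed 3 such markers, and the type with the largest share of its markers present was taken. Barcodes also passing for an unrelated type, 984 in library 2 and 1033 in library 1, were set aside, as were smooth muscle and fibroblast mixtures, 87 in library 2 and 103 in library 1. No doublet caller was run. Another 617 barcodes of library 2 and 290 of library 1 passed no gate, and the cell types described have 20 or more barcodes in each library, rather than the 30 first planned, which keeps the neutrophils (21) and dendritic cells (25) of library 2. The gate first planned, summed marker UMIs at 5 times free RNA, left 4 fibroblasts in library 2 and 38 in library 1, so the present gate was chosen after the data were seen and the planned one was kept as an alternative.

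UMIs were summed per type and library as CPM with exact Poisson intervals, shares have Clopper-Pearson intervals, and ratios have exact conditional binomial intervals, all at 95%. PCR duplicates are removed by UMIs, and the intervals cover counting error only. Depth was equalised where stated by thinning to 3000 UMIs. A ratio between libraries was counted at 1.5-fold in genes with 20 or more UMIs. Pathway lists were receptors, NF-kappaB subunits and kinases, feedback genes, inflammasome, prostaglandin, related cytokine and immediate-early genes, and glucocorticoid-response genes, added after values were seen. For each of the 10 genes the 3 most alike by Pearson r were named, except 1 that is not reported here. From each list the 3 genes with the most UMIs were named, with any gene past 1.5-fold the same way in macrophages and fibroblasts. The 10 genes and the lists were chosen with earlier results of these data known. Gene names came from the matrix and promoter sequences from RefSeq (GRCm38.p6). The fold calls, the ratio intervals and some of the gates were run on counts simulated from these data. The gate simulation drew on profiles of the same gates, so it is no check of the cell type names. Subsets, splits by a UMI and promoter matches were not simulated.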

Additional observations from a re-analysis of the deposited data

Results flagged for a closer look

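The ratio of library 2 to library 1 ran in opposite directions in different cell types for a pair of genes. The difference between types was not tested, because each library stands alone.

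Tnfaip3 was higher in library 2 in neutrophils, at 1.68. It was lower in monocytes at 0.456, smooth muscle at 0.416, pericytes at 0.395, fibroblasts at 0.652, chondrocytes at 0.490 and the Igfbp2/Ccn5 type at 0.542. The neutrophil value rests on 21 barcodes in library 2 and 63 in library 1.

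Ptgs2 was higher in library 2 in endothelial barcodes, at 1.63. It was lower in monocytes at 0.478, smooth muscle at 0.602, pericytes at 0.296, fibroblasts at 0.566 and chondrocytes at 0.558. Ptgs2 was below the level of free RNA in both libraries in endothelial and smooth muscle barcodes, and in library 2 alone in monocytes and pericytes. The endothelial ratio stayed between 1.17 and 2.14 under the alternatives run.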

How the results depend on the processing

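Of 1184 values recomputed under 14 alternatives, 873 stayed within their counting error or within 1.5 times, 301 moved and 10 crossed a ratio of 1. No paired analysis was possible because each library stands alone and no test was made. The ratios that crossed were Tnfaip3 in neutrophils, 0.936 with barcodes from 1000 UMIs, Il6 in chondrocytes, 1.65 without barcodes over 20000 UMIs, and Il6 in monocytes, 1.03 with barcodes of several types kept, 1.80 with the planned summed gate and 3.401 with markers at 4 times free RNA. The others were Ptgs2 in monocytes, 1.36 and 1.45 under the same 2 gates, Il33 in macrophages, 0.935 with the planned gate and 0.741 with that gate at 10 times, and Il33 in endothelial barcodes, 0.941 at 10 times. The causes were not tested.

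Among counts of the 10 genes past 1.5-fold, those in smooth muscle that were higher numbered 2 with barcodes from 1000 UMIs, and 0 from 5000 UMIs, with 2 markers per gate, several types kept, thinning, a 2-fold threshold, the planned gate, markers at 4 times free RNA, or no barcodes over 20000 UMIs. Those lower in smooth muscle numbered 2 from 1000 UMIs. In macrophages 3 were higher from 1000 UMIs and 0 with several types kept, thinning, a 2-fold threshold or either summed gate, and 1 was lower at 2-fold. In fibroblasts 3 were lower after thinning or at 2-fold. In endothelial barcodes 2 were lower with 2 markers, 3 with several types kept and 0 at 2-fold, and 0 were higher at 2-fold, 1 with the summed gate at 10 times and 5 at 5 times. With either summed gate all 10 genes were highest in an immune type in library 2, where fewer than 20 fibroblasts remained. The share of all genes past 1.5-fold was 24.1% in macrophages with 20 UMIs per gene, 14.6% with 100 and 42.4% with 1. It was 14.3%, 6.67% and 36.9% in fibroblasts, 14.0%, 7.02% and 34.2% in smooth muscle, and 17.8%, 9.16% and 40.2% in endothelial barcodes.

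The type with the highest level changed in 28 of 177 comparisons, in 8 of 20 gene and library pairs. Pairs whose leading type kept fewer than 20 barcodes in a library were left out of these counts. That left 11 of the 20 pairs from 5000 UMIs and 13 with each summed gate, so the counts understate how often the leading type changed. Nfkbia was lower in library 2 in 13 of 13 types under 7 of the alternatives, and in 12 of 13 after thinning, where T cells were at 1.03. Few UMIs limit Lif and Il1a. Library 1 levels of Il1a in macrophages and of Il33 in fibroblasts fell to 21.2 and 204 CPM without barcodes over 20000 UMIs.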

Other observations

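A short list of glucocorticoid-response genes, added after values of these data were seen, was read between libraries. In macrophages 3 of 6 were lower in library 2, against 5.18% of all genes, and none higher, with a median log2 ratio of -0.55. Smooth muscle had 5 of 6 lower (median -0.90), against 6.56%, fibroblasts 2 of 6 (median -0.57), against 4.89%, endothelial barcodes 3 of 6 (median -0.58), against 4.51%, and dendritic cells 5 of 5 (median -1.09), against 13.2%. The Igfbp2/Ccn5 type had 5 of 6 lower, against 4.52%, and pericytes 4 of 6, against 11.2%. Schwann barcodes had 4 of 6 lower, against 16.7%, the Penk/Prg4 type 3 of 6, against 5.64%, and chondrocytes 2 of 6, against 8.69%. None of 5 passed in monocytes (median -0.22), where 13.4% of all genes were lower and 23.8% higher. None of 4 passed in neutrophils (median -0.21), where 22.8% were lower and 18.7% higher. In T cells none of 6 was lower, against 9.32%, and 1 higher, against 19.9% (median 0.12). Fkbp5, a co-chaperone of the glucocorticoid receptor, was the 1 gene of all the pathway lists past 1.5-fold in the same direction in macrophages and fibroblasts. It stood at 20.5 CPM in macrophages of library 2 and 37.4 CPM in those of library 1, at 12.8 CPM in smooth muscle of library 2 and 48.8 CPM in that of library 1, and at 35.2 CPM in fibroblasts of library 2 and 77.4 CPM in those of library 1.

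The 12 genes lower in library 2 in all 13 types were Nfkbia, Tsc22d3, Sgk1, Ccnd3, Ptpn1, Chd4, Sf3b1, Tomm20, Arpc3, Tpt1, Rpl6 and Rpl32. Of these, Tsc22d3 and Sgk1 are also on the glucocorticoid-response list. That list was added after values of these data were seen, so the overlap is not an independent result. Klf9 from that list was highest in Schwann barcodes at 588 CPM in library 2 and 1306 CPM in library 1.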
